A study of Homo sapiens with 25 samples.

Results

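The clustered protocadherins are cell-adhesion proteins whose genes lie in 3 neighbouring clusters, alpha, beta and gamma, on the long arm of chromosome 5. They were taken here as all protein-coding genes of chromosome 5 whose symbol begins with PCDHA, PCDHB or PCDHG in the RefSeq annotation of GRCh38.p14. That rule gave 53 of 20037 protein-coding genes, with 15 genes in the alpha cluster, 16 in the beta cluster and 22 in the gamma cluster. For each gene the presence of a ChIP-seq peak was read within 1 kb either side of the annotated start, on the plus strand for all 3 clusters. The annotated starts lie 3374 to 85119 bp from their neighbours, so no window overlaps another, and no peak was the strongest peak of 2 windows.

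In the alpha and gamma clusters each member has its own promoter and a single large variable exon, which is spliced to constant exons shared by the whole cluster, whereas each beta gene is a single-exon gene without constant exons. In neurons each cell uses a small, largely random choice of the alternate promoters, which gives single cells distinct surface identities. The choice involves promoter DNA methylation, CTCF and cohesin, and enhancers that lie downstream of the variable exons. The C-type genes PCDHAC1, PCDHAC2, PCDHGC3, PCDHGC4 and PCDHGC5, next to the constant exons, are instead used by most neurons of a given kind. H3K27me3 is laid down by the Polycomb complex PRC2 and marks repressed developmental genes, H3K27ac marks active promoters and enhancers, while H3K4me2 is found at active promoters and enhancers as well as at poised ones.

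The samples come from H1, a single human embryonic stem cell line, at 4 stages of a directed differentiation: hESC, the undifferentiated cells; hDE, definitive endoderm; hAFE, anterior foregut endoderm; and, last, hPFE, pharyngeal foregut endoderm. The labels name no genetic change and no donor other than the H1 line. Peak lists of 21 libraries were used, called by the authors per library against 1 input library of the same stage, so that all lists of a stage share their input. H3K27ac had 2 libraries at every stage. H3K27me3 had 2 libraries at every stage except hAFE, with 1 library, and H3K4me2 had 2 in hESC and hDE and 1 in hAFE and hPFE. The hESC lists of H3K27ac and H3K27me3 were re-analysed from an earlier deposit, so for those marks the origin of the library and the hESC stage cannot be told apart. The word millipore stands in the names of 3 H3K27me3 libraries, replicate 1 at hESC, hDE and hPFE, and the sources used here do not say what it stands for. No label says that replicates were separate cultures.

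The lists held 23457 to 76441 peaks for H3K27me3, 24871 to 111256 for H3K27ac and 87357 to 116210 for H3K4me2. A member counts as marked at a stage if its window held a peak in all libraries of the stage, as gained between stages if no earlier library and every later one had a peak, and as lost in the opposite case. Read depth was not recorded in the lists, so no counting interval is given, and a start without a peak is one where no peak was called, not one shown to lack the mark. The cell labels were read against marker starts. H3K27ac marked 4, 1, 1 and 1 of 4 hESC markers, 0, 7, 1 and 1 of 7 hDE markers and 1, 1, 3 and 6 of 9 hAFE and hPFE markers at hESC, hDE, hAFE and hPFE. PAX9, PAX1 and TBX1, pharyngeal genes, were not called for H3K27ac at hPFE. Of 10 neural markers, H3K27ac marked 0, 1, 1 and 2 at the same stages, the last being TUBB3 and MAP2.

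The promoters of 6 genes are shown because the main patterns turn on them, each as 250 bases before and 50 bases after the start, from RefSeq on GRCh38.p14, plus strand, 5′ to 3′, with CpG dinucleotides in capitals. PCDHA11 (chr5:140868707-140869006) and PCDHB2 (chr5:141094365-141094664) carried H3K27ac in every library. PCDHAC2 (chr5:140966226-140966525) carried H3K27me3 in every library. PCDHGC3 (chr5:141475716-141476015) and PCDHGC4 (chr5:141484780-141485079) carried H3K27me3 in hESC and H3K27ac later. PCDHGA5 (chr5:141363912-141364211) had none of the 3 marks in any library. These calls are for the window of 1 kb either side of the start and not for the printed bases. At PCDHGC4 both H3K27me3 (chr5:141485268-141487387) and H3K27ac (chr5:141484175-141484553) lay outside the printed bases. The PCDHAC2 region found in every library (chr5:140966838-140968711) and the PCDHGC3 H3K27me3 region (chr5:141476250-141478531) lay after them. The CpG count was 7 in PCDHA11, 10 in PCDHB2, 15 in PCDHAC2, 18 in PCDHGC3, 23 in PCDHGC4 and 6 in PCDHGA5.
PCDHA11: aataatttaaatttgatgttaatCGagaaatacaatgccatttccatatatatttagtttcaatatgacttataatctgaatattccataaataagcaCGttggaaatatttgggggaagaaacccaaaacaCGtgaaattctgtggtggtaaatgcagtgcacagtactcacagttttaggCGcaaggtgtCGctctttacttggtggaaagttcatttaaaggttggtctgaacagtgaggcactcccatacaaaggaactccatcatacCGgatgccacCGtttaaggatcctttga
PCDHB2: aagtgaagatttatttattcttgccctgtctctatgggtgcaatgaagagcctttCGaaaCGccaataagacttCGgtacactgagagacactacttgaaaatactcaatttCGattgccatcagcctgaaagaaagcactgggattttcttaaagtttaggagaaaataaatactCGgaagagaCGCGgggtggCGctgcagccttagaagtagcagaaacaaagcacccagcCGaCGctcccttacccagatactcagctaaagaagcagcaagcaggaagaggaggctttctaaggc
PCDHAC2: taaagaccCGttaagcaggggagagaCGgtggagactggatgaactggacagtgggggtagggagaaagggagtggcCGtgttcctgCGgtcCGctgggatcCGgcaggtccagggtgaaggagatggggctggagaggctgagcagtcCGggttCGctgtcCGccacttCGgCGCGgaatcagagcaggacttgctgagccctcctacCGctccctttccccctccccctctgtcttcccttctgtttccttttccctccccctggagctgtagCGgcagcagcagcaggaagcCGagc
PCDHGC3: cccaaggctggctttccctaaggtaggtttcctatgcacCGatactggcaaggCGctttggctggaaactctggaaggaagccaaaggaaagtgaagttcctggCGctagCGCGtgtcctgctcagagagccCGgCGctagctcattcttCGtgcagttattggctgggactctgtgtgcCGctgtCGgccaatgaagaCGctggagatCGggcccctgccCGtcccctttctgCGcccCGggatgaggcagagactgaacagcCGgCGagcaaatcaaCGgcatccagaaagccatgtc
PCDHGC4: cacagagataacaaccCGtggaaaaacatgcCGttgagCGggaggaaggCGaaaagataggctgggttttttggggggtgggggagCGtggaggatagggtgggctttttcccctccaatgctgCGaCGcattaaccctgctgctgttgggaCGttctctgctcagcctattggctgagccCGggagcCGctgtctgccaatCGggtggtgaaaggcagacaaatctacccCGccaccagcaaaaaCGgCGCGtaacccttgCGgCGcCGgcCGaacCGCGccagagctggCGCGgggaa
PCDHGA5: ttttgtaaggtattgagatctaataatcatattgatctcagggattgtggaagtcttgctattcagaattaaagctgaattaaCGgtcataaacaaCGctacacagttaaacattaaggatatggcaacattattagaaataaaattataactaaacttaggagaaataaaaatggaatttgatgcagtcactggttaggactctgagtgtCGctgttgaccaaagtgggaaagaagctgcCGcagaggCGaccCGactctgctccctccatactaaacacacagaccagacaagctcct

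The clusters were sparsely marked beside other genes at every stage. In each of the 21 libraries the share of members with a peak was below the share over the 15843 protein-coding genes whose strand was known. That share was 3.77% to 18.9% of members against 12.1% to 22.6% of all genes for H3K27me3, 5.66% to 28.3% against 35.7% to 58.2% for H3K27ac, and 26.4% to 56.6% against 69.8% to 74.0% for H3K4me2. In all, 14 members had H3K27me3, 19 had H3K27ac and 35 had H3K4me2 in at least 1 library. No peak of any mark was found at 13 starts: PCDHA3 and PCDHA5 of the alpha cluster, PCDHB13 of the beta cluster, and 10 of 22 gamma genes, PCDHGA1, PCDHGA4, PCDHGB2, PCDHGA5, PCDHGB3, PCDHGA6, PCDHGA7, PCDHGB5, PCDHGA9 and PCDHGA12. PCDHGA1, the first gene of its cluster, and PCDHGA12, the last A-type gene of it, are both in that group, and of the starts from PCDHGA4 to PCDHGA7 none had a peak in its window. All-gene shares were not computed for the counts in at least 1 library or for the 13 starts without a peak. Those counts are therefore a description of the members alone.

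**Figure D1:**
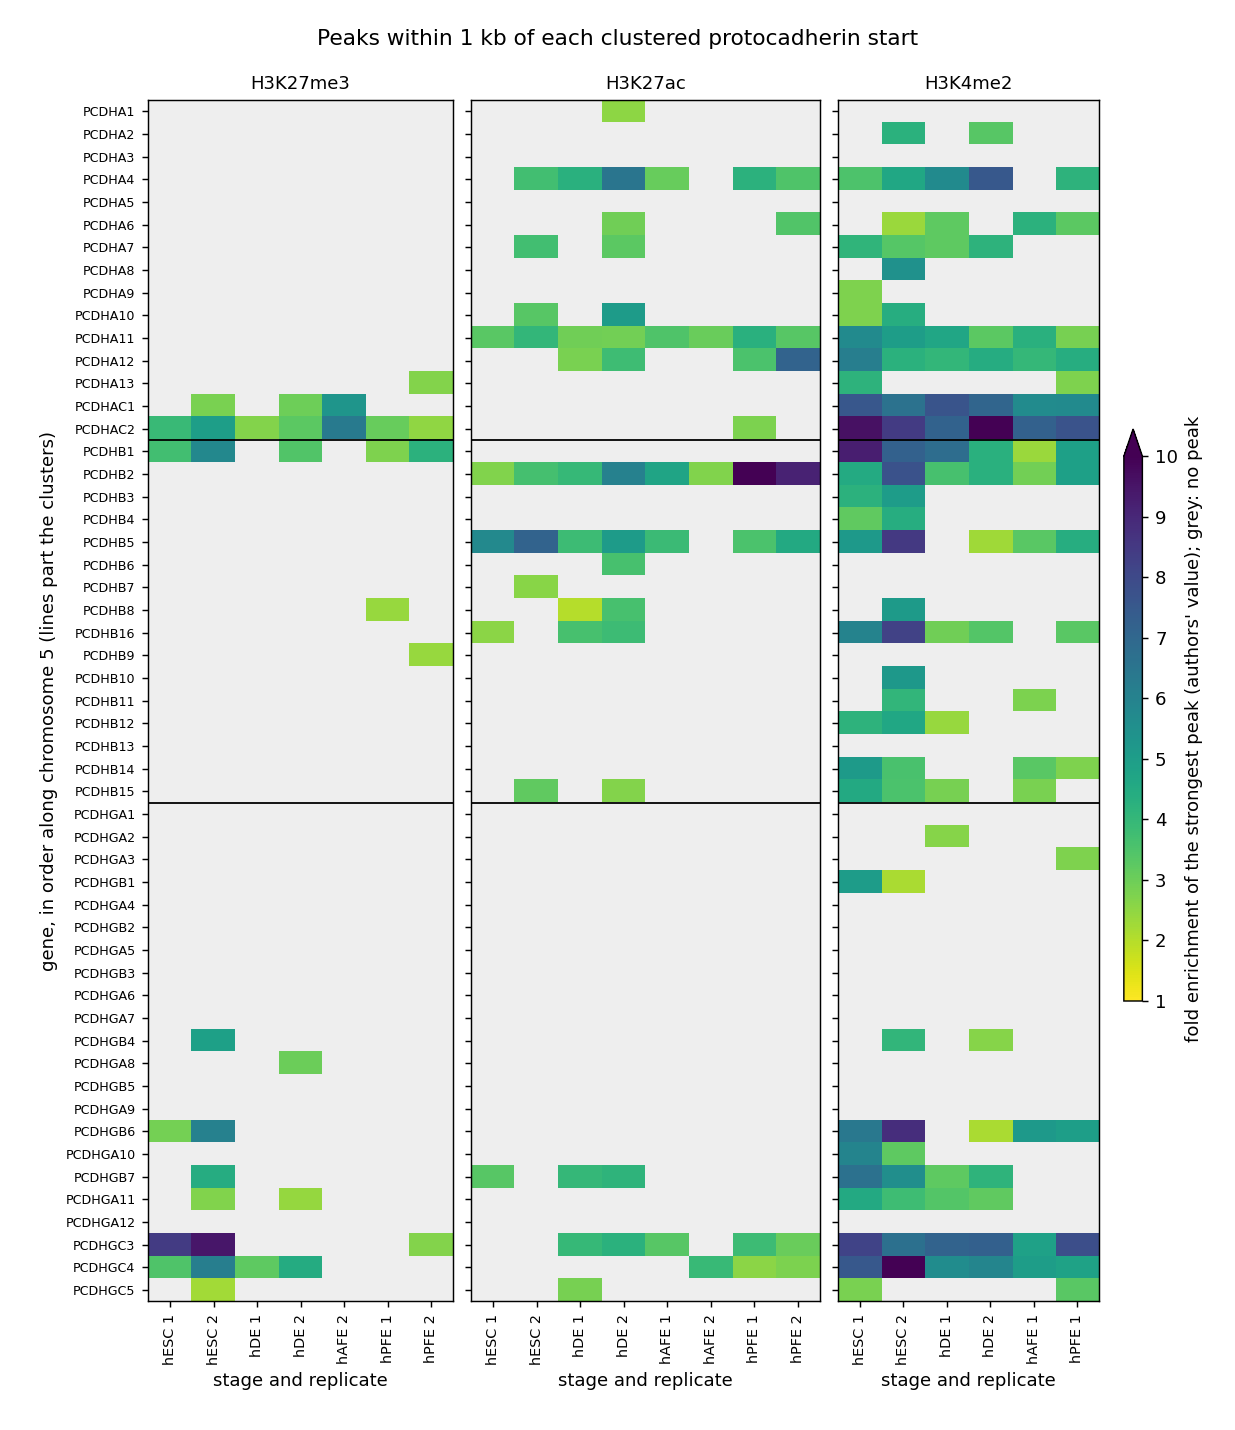
Each cell gives the fold enrichment that the authors recorded for the strongest peak within 1 kb of the start of 1 gene (down the page, in chromosome order) in 1 library (across, by stage and replicate), and grey cells have no peak. H3K27me3 in 3 or more libraries is found at C-type genes and PCDHB1, H3K27ac in 5 or more at PCDHA4, PCDHA11, PCDHB2, PCDHB5 and PCDHGC3, and most of the gamma cluster is grey.

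H3K4me2, the most widespread of the marks, was found in hESC at 26 and 30 starts in replicates 1 and 2, in hDE at 17 and 17, in hAFE at 14 and in hPFE at 17. The number of starts was thus lower in every later library than in both hESC libraries. Called in every library of the stage, it marked 23 members in hESC (72.3% of all genes), 13 in hDE (68.3%), 14 in hAFE (69.9%) and 17 in hPFE (69.8%). By cluster that was 7 alpha, 9 beta and 7 gamma genes in hESC, 6, 3 and 4 in hDE, 5, 6 and 3 in hAFE, and 7, 5 and 5 in hPFE. Where a list is limited to peaks with a −log10 q of 2 or more, the counts were 20, 8, 8 and 10 members at hESC, hDE, hAFE and hPFE.

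In all, 8 members had H3K4me2 in 6 of 6 libraries: PCDHA11, PCDHA12, PCDHAC1, PCDHAC2, PCDHB1, PCDHB2, PCDHGC3 and PCDHGC4. The set holds 4 of the 5 C-type genes and PCDHB1, the first beta gene, which stands apart from the rest of its cluster. The H3K4me2 and H3K27me3 regions at the PCDHB1 start also overlap another annotated gene, PCDHB1-AS1. Peaks there cannot be assigned to one or the other. PCDHAC2 had folds of 9.61 and 8.43 in hESC, 7.18 and 11.26 in hDE, 7.22 in hAFE and 7.69 in hPFE, ranking above 94.1% to 99.8% of the peaks of its own list. PCDHGC4 had folds of 7.53 and 16.12 in hESC, 5.63 and 5.9 in hDE, 5.0 in hAFE and 4.8 in hPFE. Its hESC replicate 2 peak was the strongest member peak of that list. PCDHGC5, the last C-type gene, had a peak only in hESC replicate 1 and in hPFE, with folds of 2.8 and 3.3. A longer H3K4me2 region lay outside its window, 2290 bp after the start (chr5:141491371-141493061), in hESC, hDE and hAFE but not hPFE.

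In hDE against hESC, H3K4me2 was gained at 0 members (0.316% of all genes) and lost at 6 (1.66%): PCDHA10, PCDHB3, PCDHB4, PCDHB14, PCDHGB1 and PCDHGA10. In hPFE against hESC, 1 member, PCDHGA3, gained it (1.1% of all genes) and 10 lost it (4.02%): PCDHA7, PCDHA10, PCDHB3, PCDHB4, PCDHB12, PCDHB15, PCDHGB1, PCDHGA10, PCDHGB7 and PCDHGA11. None of the 10 is a C-type gene or among the genes with H3K27ac in most libraries. PCDHGA10 had folds of 5.95 and 3.23 in the hESC libraries and PCDHB3 4.22 and 5.03, and neither had a peak in its window at any later stage. The 2 hESC peaks of PCDHGA10 did not overlap, and later peaks lay outside its window. A region at −1235 bp from its start had H3K4me2 in hESC replicate 1 (2.93) and hPFE (3.91). Another at −1685 bp had it in hAFE (3.18) and hPFE (3.43). In hPFE against hDE, 4 members gained H3K4me2 (1.46% of all genes), PCDHA13, PCDHB14, PCDHGA3 and PCDHGC5, and 3 lost it (2.01%), PCDHA7, PCDHGB7 and PCDHGA11. The 4 gains rest on the single hPFE library, where each peak had a −log10 q below 2, namely 0.65 at PCDHA13, PCDHB14 and PCDHGA3 and 1.31 at PCDHGC5. With peaks of a −log10 q of 2 or more only, none of the 4 gains and 3 losses was found, and there were 2 gains at other members and 0 losses. Losses outnumbered gains in both comparisons with hESC, among all genes as among the members. Without hESC replicate 1 there were 0 gains and 10 losses in hDE and 3 gains and 16 losses in hPFE, both against hESC, and without hDE replicate 2 there were 6 of each in hPFE against hDE.

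H3K27ac was found at few starts. In hESC, 5 and 8 members had a peak in replicates 1 and 2, in hDE 10 and 15, in hAFE 5 and 3, and in hPFE 8 and 8. Called in both libraries, it marked 3 members in hESC (43.5% of all genes), PCDHA11, PCDHB2 and PCDHB5, and 9 in hDE (54.6%), adding PCDHA4, PCDHA12, PCDHB8, PCDHB16, PCDHGB7 and PCDHGC3. It marked 2 in hAFE (35.3%), PCDHA11 and PCDHB2, and 7 in hPFE (51.2%), PCDHA4, PCDHA11, PCDHA12, PCDHB2, PCDHB5, PCDHGC3 and PCDHGC4. The all-gene share moved the same way between stages, and the hAFE lists were the shortest of the mark at 42100 and 24871 peaks. At a −log10 q of 2 or more the counts were 1, 8, 0 and 3 members at hESC, hDE, hAFE and hPFE, with PCDHB5 the only hESC gene and PCDHA4, PCDHA11 and PCDHB2 the hPFE genes. With all lists of the mark shortened to the same number of peaks, it marked 1 member at each stage, so that the stages no longer differed in their count. For no mark were all-gene shares computed under these limits.

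PCDHA11 and PCDHB2 were the members with H3K27ac in all 8 libraries. At PCDHA11, an alternate alpha gene, the folds were 3.29 and 4.03 in hESC, 2.95 and 2.93 in hDE, 3.48 and 3.05 in hAFE, and 4.3 and 3.34 in hPFE. The −log10 q at PCDHA11 was 2 or more in 5 of the 8, and with equal list lengths a peak was left in 3. At PCDHB2, the second beta gene, the folds were 2.7 and 3.64 in hESC, 3.97 and 6.06 in hDE, 4.75 and 2.71 in hAFE, and 10.24 and 9.14 in hPFE. Both hPFE peaks of PCDHB2 ranked high within their own lists, above 97.6% and 97.1% of the peaks. PCDHB2 kept a peak in 6 of 8 libraries at a −log10 q of 2 or more, in 6 with an overlap of 200 bp and in 7 with equal list lengths. Fold values come from separately called lists, so a difference in fold between libraries is not read as a change.

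PCDHB5 had H3K27ac in 7 of 8 libraries, all but hAFE replicate 2, with folds of 5.77 and 7.14 in hESC, 3.82 and 5.07 in hDE, 3.88 in hAFE and 3.54 and 4.52 in hPFE. Its 2 hESC peaks ranked above 91.8% and 97.4% of their lists. PCDHA4 had it in 6 of 8, with folds of 3.74 in hESC replicate 2, 4.29 and 6.49 in hDE, 3.09 in hAFE replicate 1 and 4.23 and 3.47 in hPFE. PCDHA12 had it in 4 of 8, both hDE libraries (2.82 and 3.8) and both hPFE libraries (3.54 and 7.14). The starts of PCDHA11 and PCDHA12 are also covered by an annotated long noncoding RNA gene, LOC112267934, and peaks there cannot be assigned to one or the other. PCDHA1, the first gene of the alpha cluster, had H3K27ac in hDE replicate 2 alone, with a fold of 2.52. PCDHA1, PCDHB6 and PCDHB7 were the 3 of 19 members with H3K27ac but no H3K4me2 in any library, each in a single H3K27ac library.

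In hDE against hESC, H3K27ac was gained at 3 members (6.56% of all genes), PCDHA12, PCDHB8 and PCDHGC3, and lost at 0 (0.928%). In hPFE against hESC it was gained at 3 members (5.21% of all genes), PCDHA12, PCDHGC3 and PCDHGC4, and lost at 0 (1.31%). In hPFE against hDE it was gained at 1 member (1.67% of all genes), PCDHGC4, and lost at 3 (2.68%), PCDHB8, PCDHB16 and PCDHGB7. PCDHB8 had folds of 2.01 and 3.61 in hDE, the first being the lowest at a member in its list, with a −log10 q of 0.35. PCDHB16 had folds of 3.62 and 3.84 and PCDHGB7 3.99 and 4.15 in the hDE libraries, and neither had a peak in hAFE or hPFE. None of the 3 gains in hPFE against hESC stayed when peaks with a −log10 q below 2 were left out, since 1 or both hPFE peaks of each gene fell under it. With the lists shortened to equal length, no member was gained or lost in any of the 3 comparisons, and with an overlap of 200 bp or more 1 was gained in hDE against hESC and 2 were lost in hPFE against hDE. With single libraries left out, hPFE against hESC had 3 gains and 4 losses without hESC replicate 1, so that the balance turned, and 4 gains and 2 losses without hESC replicate 2. In hDE against hESC there were 5 gains and 1 loss without hESC replicate 1 and 6 gains and 0 losses without hDE replicate 1, and hPFE against hDE had 1 gain and 8 losses without hDE replicate 1.

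H3K27me3 shared 6 members with H3K27ac when a peak in any library of each mark is counted. It was found at 5 and 10 members in hESC replicates 1 and 2, at 2 and 6 in hDE, at 2 in hAFE and at 3 and 5 in hPFE. Called in every library of the stage, it marked 5 members in hESC (17.2% of all genes), PCDHAC2, PCDHB1, PCDHGB6, PCDHGC3 and PCDHGC4, and 2 in hDE (11.3%), PCDHAC2 and PCDHGC4. It marked 2 in hAFE (13.2%), PCDHAC1 and PCDHAC2, and 2 in hPFE (10.6%), PCDHAC2 and PCDHB1. At a −log10 q of 2 or more the counts were 4, 1, 2 and 0 at hESC, hDE, hAFE and hPFE, and with equal list lengths 5, 1, 2 and 0. PCDHAC2, with a peak in 7 of 7 libraries, kept it in 3 under the q limit and in 5 with equal lengths. The marked set without those limits was 4 of the 5 C-type genes, PCDHB1 and PCDHGB6. In hESC, replicate 1 is a library with millipore in its name and replicate 2 is not. The 5 genes have a peak in both because the rule requires it. A further 5 members had a peak in replicate 2 only and none in replicate 1 only.

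**Figure D2:**
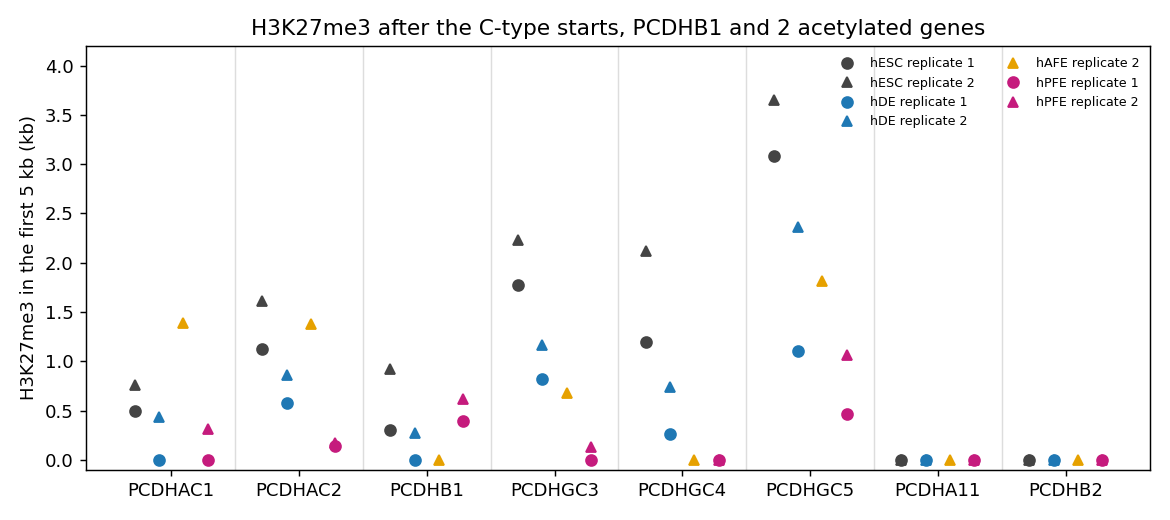
The kb covered by H3K27me3 peaks from the start to 5 kb after it is plotted for the 5 C-type genes, PCDHB1 and, for comparison, PCDHA11 and PCDHB2, with 1 point per library, coloured by stage. The gamma C-type genes reach their highest values in hESC (3.65 kb at PCDHGC5), PCDHAC1 and PCDHAC2 keep 1.39 and 1.38 kb in hAFE, and PCDHA11 and PCDHB2 have none in any library.

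Within the 1 kb window the near edge of the main domains was caught in some or all libraries, except at PCDHGC5, whose domain began beyond it. These H3K27me3 regions were merged over all libraries of the mark, so their edges and lengths need not hold in each library. They began after the start, at 238 bp for PCDHGC4, 284 bp for PCDHGC3, 362 bp for PCDHAC2, 667 bp for PCDHB1, 800 bp for PCDHAC1 and 1423 bp for PCDHGC5. The edges at PCDHGC4 and PCDHGC3 are those of hESC replicate 2. Shorter peaks lay before the start in some libraries. They covered 299 and 225 bp of the window at PCDHAC2 in the hESC libraries and 418 bp in hPFE replicate 1, 223 and 378 bp at PCDHB1 in the hPFE libraries, and 32 bp at PCDHAC1 in hDE replicate 2. The count of marked members depended on the window. At 500 bp either side it was 1, 0, 0 and 1 at hESC, hDE, hAFE and hPFE, and at 2.5 kb either side, a width chosen after the data were seen, it was 9, 3, 4 and 2. The domains, merged in that way, were 922 to 3715 bp long, the longest being that of PCDHGC5 (chr5:141490504-141494218). It held a peak in 7 of 7 libraries, although its start window was met by a separate 167 bp peak of hESC replicate 2 alone, over 16 bp.

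Across the first 5 kb, H3K27me3 covered less in hPFE than in hESC at each of the 3 gamma C-type genes. At PCDHGC5 it covered 3.08 and 3.65 kb in hESC, 1.1 and 2.36 kb in hDE, 1.81 kb in hAFE and 0.46 and 1.06 kb in hPFE. At PCDHGC3 it covered 1.77 and 2.23 kb in hESC, 0.82 and 1.17 kb in hDE, 0.68 kb in hAFE and 0 and 0.13 kb in hPFE. At PCDHGC4 it covered 1.2 and 2.12 kb in hESC and 0.26 and 0.74 kb in hDE, and none in the hAFE library or either hPFE library. At PCDHAC2, the hAFE value of 1.38 kb lay between the 2 hESC values of 1.12 and 1.61 kb, and the hPFE values were 0.14 and 0.17 kb. These values leave out the peaks before the start. At PCDHAC1 the hAFE value of 1.39 kb was above both hESC values, 0.5 and 0.76 kb, and hDE and hPFE each had 1 library with none. Both hPFE libraries lay below both hESC libraries at 7 of 53 members (10.9% of all genes), the 5 C-type genes with PCDHGB6 and PCDHGB7, and above both at 0 (3.8% of all genes). The count of 7 is near the all-gene share. At PCDHB1 the groups overlapped, with 0.39 and 0.62 kb in hPFE and 0.3 and 0.92 kb in hESC. Over all genes, H3K27me3 also marked a smaller share at the later stages, and the hESC lists come from an earlier deposit.

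Loss of H3K27me3 by the window rule was found in hDE against hESC at 2 members (4.34% of all genes), PCDHGB6 and PCDHGC3, with 0 gains (0.492%). In hPFE against hESC it was lost at 2 members (6.21% of all genes), PCDHGB6 and PCDHGC4, with 0 gains (0.852%). In hPFE against hDE it was lost at 1 member (1.94% of all genes), PCDHGC4, with 0 gains (1.29%). That loss was not found with a window of 500 bp either side, and with an overlap of 200 bp or more there was 1 gain at another member and 0 losses. The loss at PCDHGC3 concerns the window and not the domain, whose remaining hDE peaks lay more than 1 kb from the start with folds of 3.45 and 4.82. These counts rest on single libraries. Without hESC replicate 1, the losses numbered 5 in hDE and 7 in hPFE against hESC. In hPFE against hESC there were 2 gains and 2 losses without hPFE replicate 1 and 1 gain and 3 losses without hPFE replicate 2. In hPFE against hDE there were 0 gains and 4 losses without hDE replicate 1 and 3 gains and 1 loss without hPFE replicate 1, and 1 gain and 1 loss when replicate 2 of either stage was left out. At PCDHGB6, a B-type gamma gene, the hESC folds were 2.89 and 6.06, no later library had a peak, and H3K4me2 was still present in 1 of 2 hDE libraries and in the hAFE and hPFE libraries.

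PCDHGC4 and PCDHGC3 were the members marked by H3K27me3 at one stage and by H3K27ac at another. PCDHGC4 had H3K27me3 in all 4 hESC and hDE libraries, with folds of 3.49 and 6.16 in hESC and 3.23 and 4.45 in hDE, and in none of the 3 hAFE and hPFE libraries. H3K27ac at the PCDHGC4 start window was absent from the 4 hESC and hDE lists and present in hAFE replicate 2 (fold 3.93) and both hPFE libraries (2.56 and 2.79). The acetylated stretch lay before the start, at chr5:141484175-141484553, and the H3K27me3 domain after it, so the 2 marks did not cover the same bases. A further H3K27ac peak, in hDE replicate 2 alone (2.67), lay just outside the window at −1133 bp from the start. All 3 H3K27ac peaks at PCDHGC4 had a −log10 q below 2, at 1.87, 0.91 and 1.47.

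PCDHGC3 had the strongest member peak of both hESC H3K27me3 lists, with folds of 8.44 and 9.46. It had no H3K27ac in hESC, and had it in both hDE libraries (3.96 and 4.25), hAFE replicate 1 (3.35) and both hPFE libraries (3.82 and 3.04). None of these 5 H3K27ac peaks was left with equal list lengths. The acetylated region, chr5:141476019-141476531, merged over libraries, began 53 bp after the start and was 513 bp long. It overlapped the near end of the H3K27me3 domain in hESC replicate 2. In hPFE replicate 2 the PCDHGC3 window also held an H3K27me3 peak, with a fold of 2.66. In hDE and hAFE both marks were found downstream of the same start at different distances. Whether the 2 marks lie on the same molecules or in different cells cannot be told apart in bulk chromatin. H3K4me2 was present at PCDHGC3 and PCDHGC4 in 6 of 6 libraries.

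Taking the marks as pairs, H3K4me2 with H3K27me3 and without H3K27ac held at 5, 2, 2 and 1 members at hESC, hDE, hAFE and hPFE, against 12.9%, 7.59%, 9.9% and 7.37% of all genes. H3K4me2 with H3K27ac and without H3K27me3 held at 3, 7, 2 and 6 members, against 39.7%, 49.8%, 34.6% and 49.0% of all genes. All 5 members with H3K27me3 in hESC had H3K4me2 there as well. Of all genes, 2729 had H3K27me3 in hESC, and 2039 of these had H3K4me2 without H3K27ac and 295 all 3 marks. The pairing is thus not particular to the members. No member had all 3 marks in every library of a stage, against 1.86%, 1.1%, 0.265% and 0.404% of all genes. Counting a peak in any library of the stage, PCDHGB7 in hESC and PCDHAC2 and PCDHGC3 in hPFE had all 3. None of the 3 marks was found at 19, 26, 38 and 34 of the 53 members, 35.8%, 49.1%, 71.7% and 64.2%, against 22.8%, 23.6%, 27.2% and 23.8% of all genes. This last class needs no peak in any library of the stage. The single library of hAFE H3K4me2 and H3K27me3 and the short hAFE H3K27ac lists stand beside the hAFE figure. The single library of hPFE H3K4me2 stands beside the hPFE figure. The part of these in the figures was not tested.

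**Figure D3:**
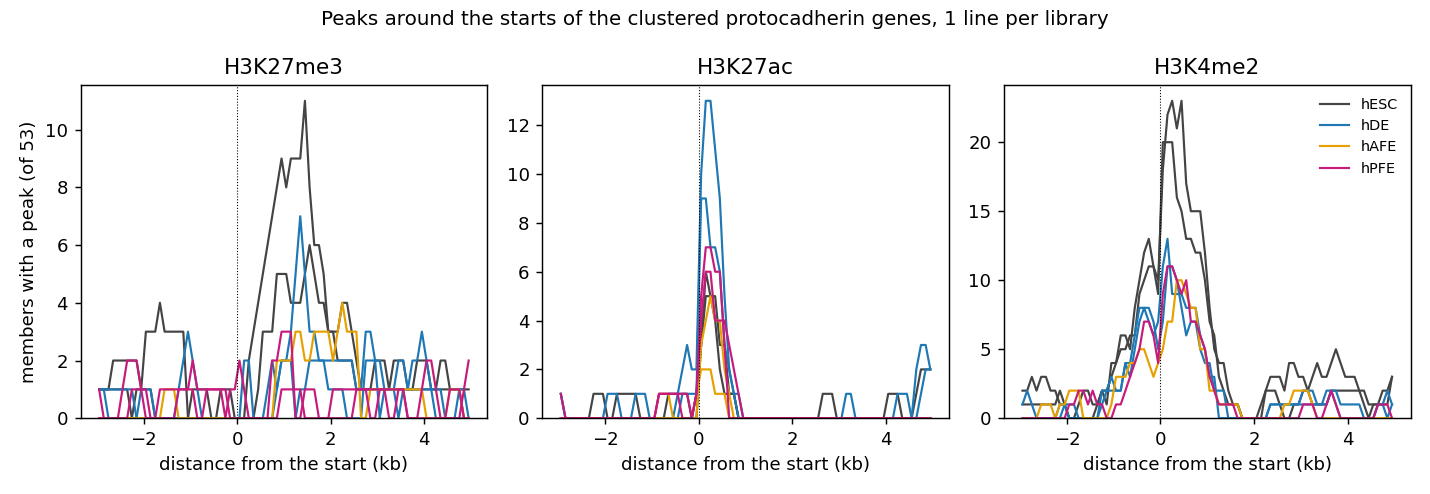
The number of members with a peak in each 100 bp bin is plotted against the distance from the annotated start, with 1 line per library, coloured by stage. H3K27ac is highest within the first 0.5 kb after the start, up to 13 members in hDE replicate 2. H3K4me2 dips just before the start, and H3K27me3 in hESC replicate 2 is highest 1.4 kb after the start, at 11 members.

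A larger share of calls lay downstream of the start than at other genes. Of the member calls, 26 of 33 for H3K27me3 (78.8%), 55 of 62 for H3K27ac (88.7%) and 93 of 121 for H3K4me2 (76.9%) covered more bases after the start than before it, against 51.2%, 68.4% and 63.7% of calls over all genes. The median summit was 878 bp after the start for H3K27me3, 184.5 bp for H3K27ac and 186 bp for H3K4me2. The variable exons of these genes begin at or near the start. Calls of 1 gene in several libraries are not independent, and the bases before and after a start were not compared by a test.

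**Figure D4:**
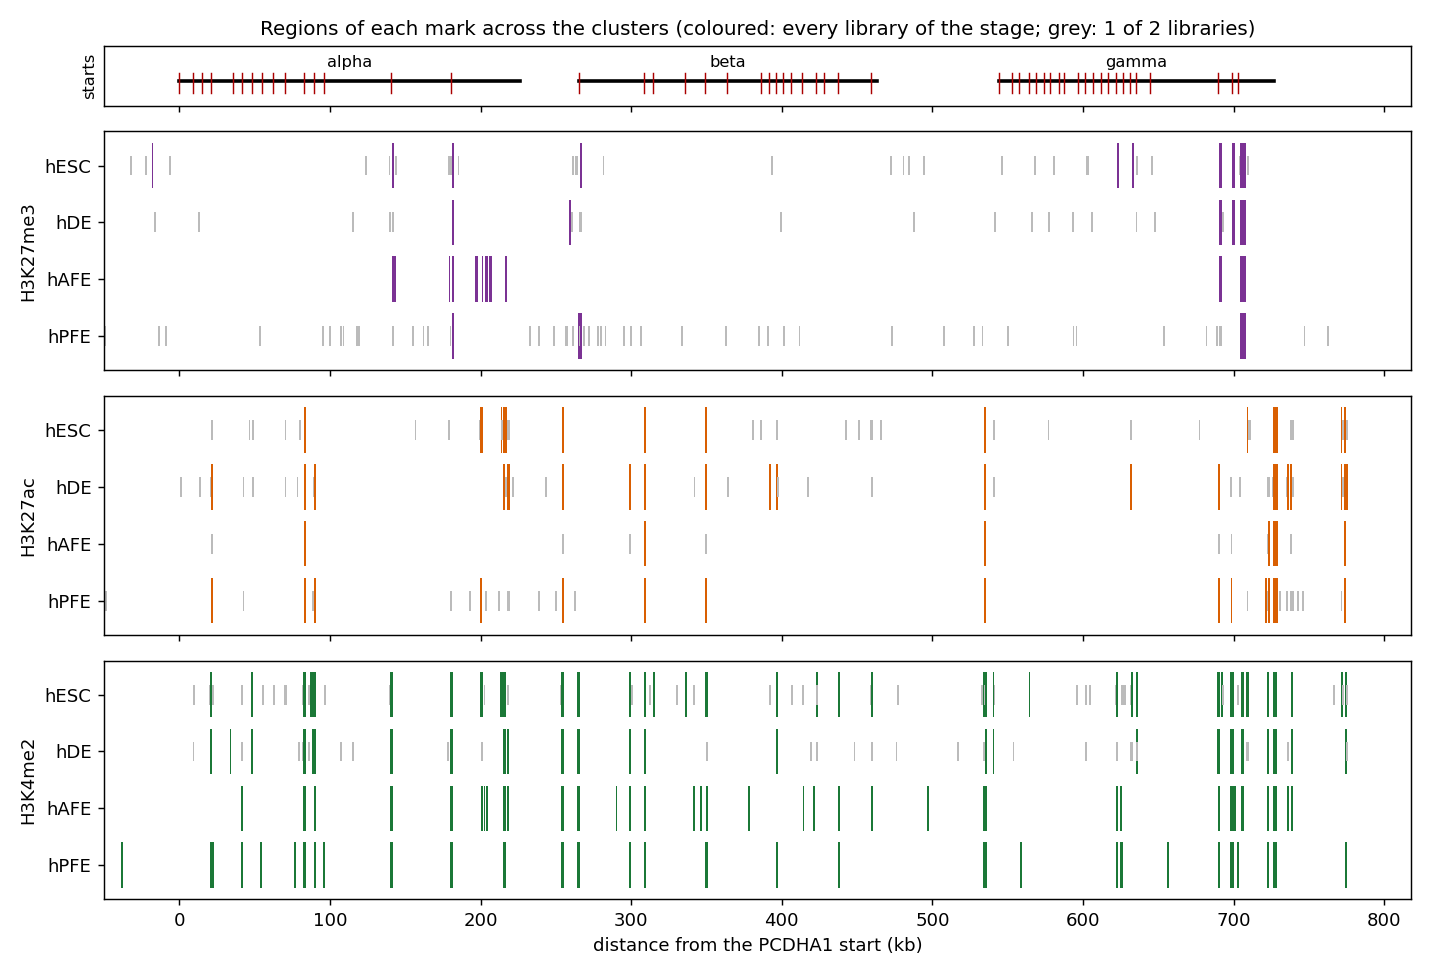
Peaks of each mark, merged over all its libraries, are drawn against the distance in kb from the PCDHA1 start, with 1 line of bars per stage. Tall coloured bars mark regions found in every library of the stage (1 library for H3K27me3 in hAFE and for H3K4me2 in hAFE and hPFE) and short grey bars those in 1 of 2. The top panel shows the 53 starts, and bars are widened to at least 1.2 kb so that they can be seen.

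Across the whole locus, from the first alpha start to the end of the gamma cluster, H3K4me2 peaks covered 34.46 and 41.2 kb in hESC, 18.63 and 19.64 kb in hDE, 16.8 kb in hAFE and 15.41 kb in hPFE. H3K27ac covered 7.4 and 7.87 kb in hESC, 7.98 and 12.01 kb in hDE, 4.43 and 1.84 kb in hAFE and 6.63 and 7.91 kb in hPFE. H3K27me3 covered 9.02 and 18.04 kb in hESC, 3.14 and 7.91 kb in hDE, 8.28 kb in hAFE and 5.89 and 5.95 kb in hPFE. For H3K4me2 all later libraries lay below both hESC libraries, whereas for H3K27ac the hESC values lay within the range of hDE and hPFE. Covered length moves with how much was called in a library, and the H3K4me2 lists covered 50.7 and 51 Mb of the genome in hESC, 37.3 and 34.6 Mb in hDE, 35.3 Mb in hAFE and 36.1 Mb in hPFE.

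In all, 4 H3K27ac regions, each merged over the libraries, held a peak in all 8 libraries. They were the PCDHA11 start (chr5:140868950-140869540), the PCDHB2 start (chr5:141094592-141095307), the start of TAF7, a TFIID subunit gene between the beta and gamma clusters (chr5:141320325-141321462), and a 2945 bp region at the end of the gamma cluster that overlaps DIAPH1, a formin gene (chr5:141512621-141515565). The TAF7 region had folds of 4.11 and 5.13 in hESC, 6.95 and 8.75 in hDE, 9.39 and 6.97 in hAFE and 10.32 and 18.1 in hPFE. A further region, chr5:141040396-141041266, lay between the alpha and beta clusters, at −10108 bp relative to the PCDHB1 start, with H3K27ac in 7 of 8 libraries and H3K4me2 in 6 of 6. Its folds of H3K27ac were 3.97 and 4.48 in hESC, 5.03 and 4.79 in hDE, 6.36 in hAFE replicate 1 and 5.91 and 17.56 in hPFE. It overlapped no annotated gene. Of the 4 regions in all 8 libraries, only the TAF7 region was left at a −log10 q of 2 or more, and likewise 1 region, between the clusters and not at a member start, with equal list lengths.

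Several regions whose calls differed between stages lay downstream of the C-type exons. Downstream of PCDHAC2, 34589 bp after its start, chr5:141001065-141002495 had H3K27ac in both hESC libraries (6.69 and 4.4) and both hDE libraries (2.64 and 5.01) and in none of the 4 hAFE and hPFE libraries. H3K4me2 was present there in 6 of 6 libraries, with folds of 10.97 and 6.94 in hESC, 5.29 and 6.67 in hDE, 2.91 in hAFE and 3.04 in hPFE. The next region, chr5:141003701-141005408, had H3K27ac in hESC replicate 2, both hDE libraries and hPFE replicate 1. A region nearer to PCDHAC2, chr5:140985882-140986368, 19406 bp after its start, had H3K27ac in both hESC (3.64 and 4.26) and both hPFE libraries (2.43 and 3.27) but in none of hDE or hAFE. With equal list lengths, 2 H3K27ac regions of the alpha cluster were left in both hESC libraries. None was left in both libraries of hDE, hAFE or hPFE.

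Downstream of PCDHGC5 the regions differed among themselves. The nearest beyond its first 5 kb, chr5:141494842-141495326, had H3K27ac in both hESC libraries (3.07 and 2.92) and in hPFE replicate 2 (2.86), and the next 2 in hESC replicate 2 alone. The region chr5:141509014-141509640, 19933 bp after the PCDHGC5 start, had H3K27ac in neither hESC library, in hDE replicate 2 (2.89), in both hAFE libraries (3.84 and 3.26) and in both hPFE libraries (3.12 and 3.72). H3K4me2 covered it in 6 of 6 libraries. Its neighbour, chr5:141507250-141508014, had H3K27ac in the 2 hPFE libraries alone, with folds of 3.15 and 4.0. At a −log10 q of 2 or more, no H3K27ac region of the gamma cluster was left in both libraries of hESC, hAFE or hPFE. The same held with equal list lengths. In the beta cluster, chr5:141084646-141085054, at −9561 bp relative to the PCDHB2 start, had H3K27ac in both hDE libraries (3.91 and 4.58) and hAFE replicate 1 (3.46), and H3K4me2 in 6 of 6. The lists hold peak positions only and do not tie any of these regions to a gene.

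Of the 73 H3K27ac regions found in the locus in any library, 45 were found in 1 library, as were 61 of 116 H3K4me2 regions and 89 of 103 H3K27me3 regions. Of the H3K27me3 regions, 6 were found in 3 or more libraries, and each belonged to a C-type gene or PCDHB1. Only 2 of them, those of PCDHAC2 and PCDHGC5, were in every library. H3K4me2 had 16 regions in every library, 10 of them at member starts. In hAFE, 11 of the 14 H3K27me3 regions lay away from member starts. Of these, 8 lay 15721 to 35861 bp after the PCDHAC2 start, each found in the single hAFE library alone. The farthest, chr5:141002337-141002594, overlapped the region that was acetylated in hESC and hDE.

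**Figure D5:**
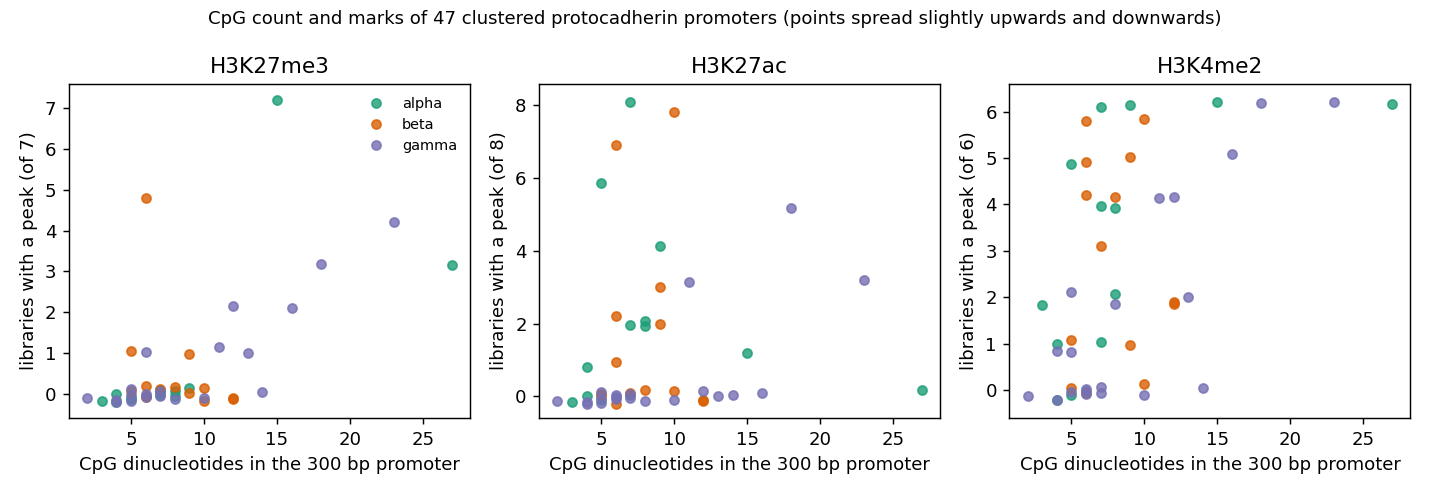
The number of libraries with a peak within 1 kb of the start is plotted against the CpG count of the 300 bp promoter for 47 members. There is 1 point per gene, coloured by cluster. The 4 C-type promoters shown, with 15 to 27 CpG, have H3K4me2 in every library, while H3K27ac in all 8 libraries is found at promoters with 7 and 10 CpG. The C-type gene PCDHGC5, with H3K4me2 in 2 of 6 libraries, had no promoter sequence and is not shown.

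Promoter sequence was at hand for 47 members, the others being PCDHA3, PCDHA13, PCDHB6, PCDHB11, PCDHGA12 and PCDHGC5. The member promoters were poorer in GC and CpG than most. Their median was 39.7% GC and 7 CpG per 300 bases, against 62.7% and 22 over all 15843 promoters. The 4 C-type promoters, with a median of 61.8% GC and 20.5 CpG, lay near the all-gene values, and the 43 others had 38.7% and 7. Members with H3K27me3 in 2 or more libraries (7 genes) had a median of 16 CpG, those with H3K4me2 in every library (8) 12.5, those with H3K27ac in 2 or more libraries (14) 8.5, and those with no mark in any library (11) 6. PCDHB1 is an exception among the H3K27me3 genes, with 6 CpG, and PCDHGB5, with 14 CpG and no mark, is one among the unmarked genes. The sets overlap in their genes, and these medians are a description.

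The conserved element of most clustered protocadherin promoters has a CGCT core, and it is known to be missing from PCDHAC2, PCDHB1, PCDHGC4 and PCDHGC5. The letters CGCT, on either strand, occurred in 46 of 47 member promoters (97.9%), against 81.0% of all promoters, and the exception was PCDHA9. So short a string also occurs in PCDHAC2, PCDHB1 and PCDHGC4, and it does not tell the element from other matches. Some promoters share long exact runs, 78 bases between PCDHGB4 and PCDHGB5, 55 between PCDHB8 and PCDHB13 and 38 between PCDHGB6 and PCDHGB7. How reads that fit more than 1 place were handled is not given in the sources used here, so presence at these genes is uncertain.

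A larger share of calls was found in 1 of 2 libraries at these starts than at other genes. In hESC, 70.0% of the members with H3K27ac in either library had it in only 1 of the 2, against 18.2% of all genes, and the shares were 43.8% against 9.12% in hDE, 66.7% against 31.4% in hAFE and 22.2% against 14% in hPFE. For H3K27me3 they were 5 of 10 members against 26.7% in hESC, 66.7% against 33.4% in hDE and 66.7% against 33.5% in hPFE. For H3K4me2 they were 30.3% against 3.72% in hESC and 38.1% against 6.1% in hDE. The median member peak of a library ranked above 19.2% to 83.25% of the peaks of its own list for H3K27me3, 29.9% to 74.15% for H3K27ac and 56.5% to 73.8% for H3K4me2. The calls at single libraries, such as H3K27me3 at PCDHA13 and PCDHB9 in hPFE replicate 2 or at PCDHB8 in hPFE replicate 1, are given only as presence in that library.

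Genes around and upstream of the clusters were marked differently. Of 12 neighbouring genes (1 of unknown strand, read at both ends), H3K27ac marked 8, 9, 7 and 7 at hESC, hDE, hAFE and hPFE, among them TAF7, the histone deacetylase gene HDAC3 and the histidyl-tRNA synthetase genes HARS1 and HARS2, while H3K27me3 marked 0 at every stage. Of 17 genes for regulators of the clusters or of chromatin loops, H3K27ac marked 15, 15, 12 and 15. CTCF, the cohesin genes RAD21, SMC1A and SMC3, the cohesin loader NIPBL and SMCHD1, a silencing factor of the clusters, were marked at all 4 stages, and DNMT3A, a DNA methyltransferase, and CTCFL, a germline paralogue of CTCF, at none. Of 13 non-clustered protocadherins, H3K27me3 marked 7, 3, 4 and 5 and H3K4me2 10 at each stage. H3K27ac marked 4, 4, 3 and 3 of the 13, or 30.8%, 30.8%, 23.1% and 23.1%. These shares too were below those of all genes, 43.5%, 54.6%, 35.3% and 51.2%. PCDH8 and PCDH19 had H3K27me3 throughout.

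Zinc finger genes of chromosome 19 form another large family of tandem copies. Of 228 with a known strand, H3K27ac marked 135, 178, 113 and 166 at hESC, hDE, hAFE and hPFE, or 59.2%, 78.1%, 49.6% and 72.8%, against 3, 9, 2 and 7 of 53 clustered protocadherins. H3K4me2 marked 192, 188, 190 and 192 of them, against 23, 13, 14 and 17. H3K27me3 marked 11, 1, 2 and 1 of them, against 5, 2, 2 and 2 of 53. The low share of H3K27ac and H3K4me2 at the clustered protocadherin starts was thus not found in that tandem family. A share of H3K27ac below that of all genes was, however, also found at the non-clustered protocadherins.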

How the data were processed

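ChIP-seq peak lists of 3 histone marks were used from 21 of 25 samples, and the other 4 samples are inputs without a list. Per the file names, the authors removed duplicate reads and called peaks per library against 1 input per stage at a p-value of 0.01 with a cap of 500 K peaks. Per the submitters' processing notes the genome build was hg38. Neither aligner nor peak caller is given in the sources used here. The authors' deposited lists hold a score, a fold enrichment over input (a ratio), and the p- and q-value of each peak as −log10. Starts, strands and promoters came from RefSeq (GRCh38.p14). A start was marked in a library when a peak overlapped its window by 1 bp or more. All 53 members lie on the plus strand, and the background was the 15843 genes with a known strand (4194 without one were not used). The 6 members without a strand in the promoter table were set to plus, and genes of the marker, neighbour, regulator and non-clustered protocadherin lists without one were kept and read at both ends. Calls need every library of a stage. No test was run and no p-value is given. The computation (Python 3.11.15, pandas 2.3.3, numpy 2.4.6, matplotlib 3.10.9) was tested on simulated peaks.

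Named genes were the ends of each cluster, the C-type genes, every gained or lost member and the 5 members marked in most libraries per mark. Others were added after their values were seen. Members, gene lists and markers were chosen with earlier results of these data known. Alternatives were a 500 bp window, a minimum −log10 q of 2, an overlap of 200 bp, lists cut to equal length, each library left out, and a 2.5 kb window.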

Additional observations from a re-analysis of the deposited data

How the results depend on the processing

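Values below count members marked at a stage, members gained or lost together in a comparison, or merged regions found in every library of a mark; of 94 values under alternatives that keep all libraries, 55 stayed within 1.5 times the value given in the report, and of 50 with a library left out, 27 did. With a window of 500 bp either side, H3K27me3 marked 1, 0, 0 and 1 members at hESC, hDE, hAFE and hPFE, and 1 changed in hDE against hESC and 0 in hPFE against hDE. With 2.5 kb either side, chosen after seeing the data, H3K27me3 marked 9 in hESC and 4 in hAFE.

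With peaks of −log10 q of 2 or more only, H3K27ac marked 1 member in hESC, 0 in hAFE and 3 in hPFE, 2 changed in hPFE against hDE and 0 in hPFE against hESC, and 1 region stayed. H3K27me3 marked 1 in hDE and 0 in hPFE, with 1 region, and H3K4me2 marked 8 in hDE, 8 in hAFE and 10 in hPFE, with 2 changed in hPFE against hDE and 9 regions. With every list of a mark shortened to the same number of peaks, H3K27ac marked 1, 1, 1 and 1 at hESC, hDE, hAFE and hPFE, 0 changed in hDE against hESC, 0 in hPFE against hDE and 0 in hPFE against hESC, and 1 region stayed. H3K27me3 then marked 1 in hDE and 0 in hPFE, with 1 region. With an overlap of 200 bp or more, H3K27ac marked 1 in hAFE, with 1 changed in hDE against hESC and 2 in hPFE against hDE, and H3K27me3 marked 0 in hDE, 0 in hAFE and 1 in hPFE; its single change in hPFE against hDE was then a gain at another member and not a loss. The cause of these changes was not tested.

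With 1 library left out at a time, H3K27ac marked 5 to 8 in hESC, 10 to 15 in hDE, 3 to 5 in hAFE and 8 to 8 in hPFE, H3K27me3 5 to 10 in hESC, 2 to 6 in hDE and 3 to 5 in hPFE, and H3K4me2 26 to 30 in hESC and 17 to 17 in hDE. Members changed for H3K27ac numbered 4 to 6 in hDE against hESC, 4 to 9 in hPFE against hDE and 4 to 7 in hPFE against hESC. For H3K27me3 these were 2 to 5, 2 to 4 and 2 to 7, and for H3K4me2 8 to 10, 10 to 12 and 13 to 19.

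No paired analysis was possible because no result comes from a test. The lists give no read depth, so a missing peak cannot be told apart from low depth; list length differs between libraries, and hAFE H3K27me3 and H3K4me2 and hPFE H3K4me2 have 1 library each.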
